A study of Mus musculus with 9 samples.

Results

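Expression of the Wnt pathway was followed in RNA from the inner lining of the mouse thoracic aorta after deletion of 3 MEF2 transcription factors. The gene set held the Wnt ligands, Frizzled receptors, LRP5 and LRP6, the secreted Dickkopf and SFRP proteins, R-spondins with their LGR receptors, the ubiquitin ligases Znrf3 and Rnf43, Dishevelled, Axin and the TCF/LEF factors. All symbols of these families in the array's table of names were taken, each by its brightest transcript cluster (the array's unit of 1 transcript region). That gave 54 genes of 30142 with a symbol, each on 1 cluster of its own. Dvl2 and Rnf43 share a cluster with another symbol and are given no value, and Tcf7 was not analysed here.

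Wnt proteins are secreted lipid-modified ligands that bind a Frizzled receptor together with LRP5 or LRP6. The receptors signal through Dishevelled to the destruction complex around Axin, and beta-catenin that escapes destruction enters the nucleus and binds TCF/LEF factors. SFRP and Dickkopf proteins act outside the cell, and R-spondins protect Frizzled receptors from ZNRF3 and RNF43. In blood vessels this pathway is best known for vascular growth and barrier formation in brain and retina, where FZD4 receives the ligand norrin as well.

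Female ACDiEKO mice carried floxed alleles of Mef2a, Mef2c and Mef2d and the tamoxifen-inducible recombinase Cdh5-CreERT2, whose promoter is active in endothelial cells. Controls were female littermates with the same floxed alleles and no recombinase. Mice of both groups were 10 weeks old at the start of 5 daily tamoxifen injections, so CreERT2 activity and loss of the MEF2 factors cannot be told apart. The aorta was taken 7 days (series text) or 14 days (sample protocols) after the first injection. The 9 Clariom D arrays, which probe whole transcripts, came from 1 aorta each, 4 control and 5 ACDiEKO. ACDiEKO replicates 1 and 2 differed by a robust SD of 0.07 over bright clusters, against 0.27 to 0.40 for the other pairs of the same group, and were averaged and counted as 1 sample. Values below are log2 units of the deposited table, in the order control 1, 2, 3 and 4, then ACDiEKO 1 and 2 averaged, 3, 4 and 5, and differences are ACDiEKO minus control with limma's adjusted p. With a further scaling step unstated, differences are not turned into folds. In a bulk sample, fewer cells of a type and less RNA per cell cannot be told apart.

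None of the floxed genes was called: Mef2a differed by 0.12 (limma, adjusted p = 0.441), Mef2c by 0.06 (0.660) and Mef2d by 0.23 (0.111). The clusters span whole transcripts, so this is no check of the recombined exons. Of 11 endothelial markers measured, none lay below the filter, 3 rose and 3 fell, and their mean was 13.32 to 13.72 in controls and 13.23 to 13.70 in ACDiEKO. The mean of 14 smooth muscle markers separated the groups, with 8.01 to 8.80 in controls and 9.12 to 9.94 in ACDiEKO, and 8 of its 12 tested members rose (among them Acta2 and Tagln) while Myh11 (-0.04) and Cnn1 (-0.27) were not called. Cell cycle markers rose in 11 of 11. The mean of 8 adipocyte markers varied widely within both groups, at 8.11 to 10.08 in controls and 7.33 to 9.69 in ACDiEKO, and none of 7 tested was called. Fibroblast marker means overlapped, at 8.11 to 8.27 in controls and 7.73 to 8.33 in ACDiEKO, while among 10 tested 1 rose (Serpinf1, 0.77) and 2 fell (Pi16, -2.41, and Clec3b, -1.60). With the mean of the tested smooth muscle markers as a covariate limma called 0 genes of any kind, and 1345 had an unadjusted p under 0.05.

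Among the 54 Wnt pathway genes, the secreted antagonist Sfrp2 rose, and the divergent Dickkopf Dkk3, the transcription factor Tcf7l2 and the receptor Fzd3 fell. Genes were tested if 4 or more of the 9 arrays exceeded 6.165, the middle value of the deposited table, and 24 of the 54 did so. Limma called 4 of these 24 (1 higher, 3 lower; 16.7%). Of all 16403 genes tested it called 2666, or 16.3% (8.92% higher and 7.33% lower), so the share among the Wnt genes was near that of the array. In 6 of the 24 the samples of the groups did not overlap, against 23% of all genes tested. The median difference of the 24 was -0.04 and that of all tested genes -0.03, with 11 of the 24 above 0 and 13 below. The balance depends on scaling, since centring each array on its median gave 3 higher and 2 lower. Without any filter, limma called 1 higher and 2 lower of the 54 (Sfrp2, Dkk3 and Tcf7l2), against 6.54% of 30142 genes.

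No Wnt ligand was bright enough to be tested. For 18 of the 19 ligands, none of the 9 arrays exceeded 6.165, and their highest array value was 6.001. Among these were Wnt5a, the main ligand of planar and calcium signaling, with means of 5.41 in control and 5.44 in ACDiEKO, and Wnt3a, a classic activator of beta-catenin, with 4.06 and 4.03. Wnt4 read 5.20 and 5.26, and Wnt9b 5.68 and 5.60. The others were Wnt1, Wnt2, Wnt3, Wnt5b, Wnt6, Wnt7a, Wnt7b, Wnt8a, Wnt8b, Wnt9a, Wnt10a, Wnt10b, Wnt11 and Wnt16. Differences of these 18 ligands lay between -0.09 and 0.06. The filter value is no measured background, so a low reading does not show that a ligand was absent.

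Wnt2b, a ligand that activates beta-catenin signaling, was the exception among the ligands. Its values were 6.37, 6.46, 5.96 and 6.06 in controls and 5.82, 5.94, 6.07 and 6.32 in ACDiEKO, so 3 arrays passed the filter value. Controls 1 and 2 and ACDiEKO 5 were the high samples, and the groups overlapped. The difference was -0.18 ± 0.15 (SE), and the smallest adjusted p of any ligand in the fit without a filter was 0.233 (Wnt9b).

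**Figure D1:**
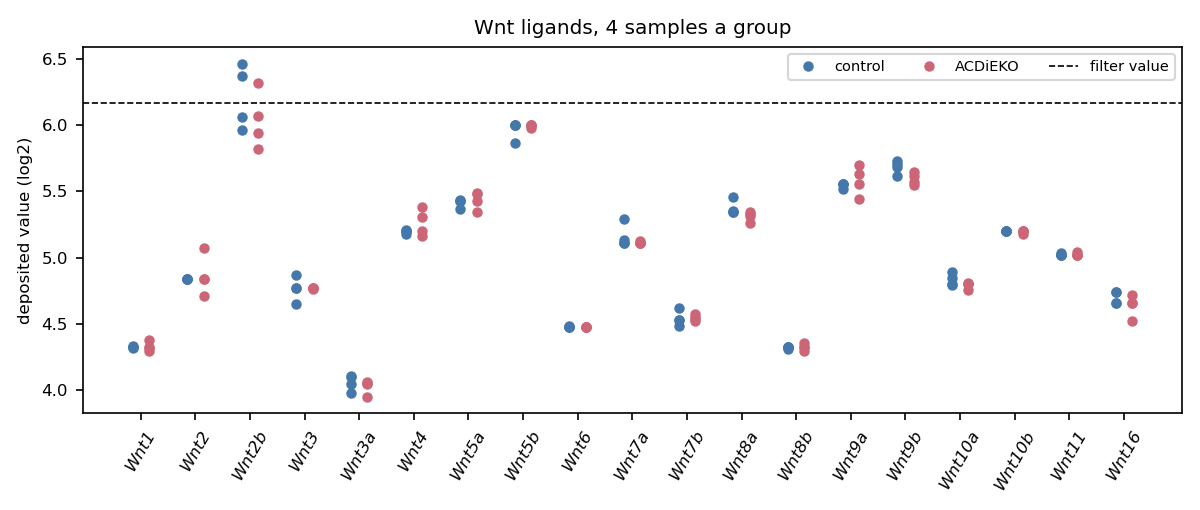
Deposited log2 values of the 19 Wnt ligands, 4 samples a group (blue control, red ACDiEKO), with the filter value of 6.165 as a dashed line. Wnt2b has samples above the line and the other 18 ligands lie below it in every sample.

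The Frizzled receptors were the family with most genes above the filter, 9 of 10, with Fzd10 (4.61 in both groups) below it. Fzd3, a receptor known from axon guidance and planar polarity, read 7.45, 6.99, 7.39 and 6.99 in controls and 6.67, 6.89, 6.71 and 6.26 in ACDiEKO. Every ACDiEKO sample was below every control, with ACDiEKO 3 closest to controls 2 and 4. It fell by 0.58 (SE 0.16; limma, adjusted p = 0.0490), just inside the threshold of 0.05. Leaving out 1 sample at a time (the averaged arrays as 1) kept the call 1 time of 8, without ACDiEKO 3 (0.0450). Adjusted p reached 0.112 without control 3, and it was 0.0841 after median centring and 0.0732 after quantile normalization.

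Fzd7, a receptor of beta-catenin signaling, lay just outside the threshold. It read 6.16, 6.16, 6.35 and 6.16 in controls and 6.44, 6.39, 6.61 and 6.46 in ACDiEKO. All ACDiEKO samples were above all controls, by a difference of 0.27 (95% interval 0.09 to 0.44; limma, adjusted p = 0.0515). Median centring brought it past the threshold (0.0338), as did quantile normalization (0.0327), counting all 9 arrays separately (0.0268) and leaving out control 3 (0.0394). Controls 1, 2 and 4 lay just under the filter value, and 6 arrays above it.

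Fzd4, the receptor of norrin and the Frizzled best known in endothelium, read 13.92, 13.90, 13.72 and 12.83 in controls and 14.42, 13.94, 13.86 and 13.92 in ACDiEKO. Control 4 was low and the averaged ACDiEKO arrays were high, while the remaining 6 samples lay between 13.72 and 13.94. The difference of 0.44 had a 95% interval of -0.14 to 1.03 (adjusted p = 0.264). Fzd8 read 8.32, 8.65, 9.11 and 8.49 in controls against 8.21, 8.32, 8.32 and 7.51 in ACDiEKO, a difference of -0.56 (adjusted p = 0.135). Its lowest control equalled its highest ACDiEKO samples. Fzd6, a planar polarity receptor, differed by -0.06 (interval -0.34 to 0.23).

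The other Frizzled differences were small. Fzd1 differed by 0.17 (adjusted p = 0.311), Fzd2 by 0.18 (0.325), Fzd5 by -0.17 (0.372) and Fzd9 by -0.07 (0.530). Their 95% intervals lay between -0.46 and 0.46. Frizzled genes lay on both sides of 0, with 4 of the 9 above it and 5 below, and with Fzd3 and Fzd7, whose samples did not overlap, on opposite sides.

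**Figure D2:**
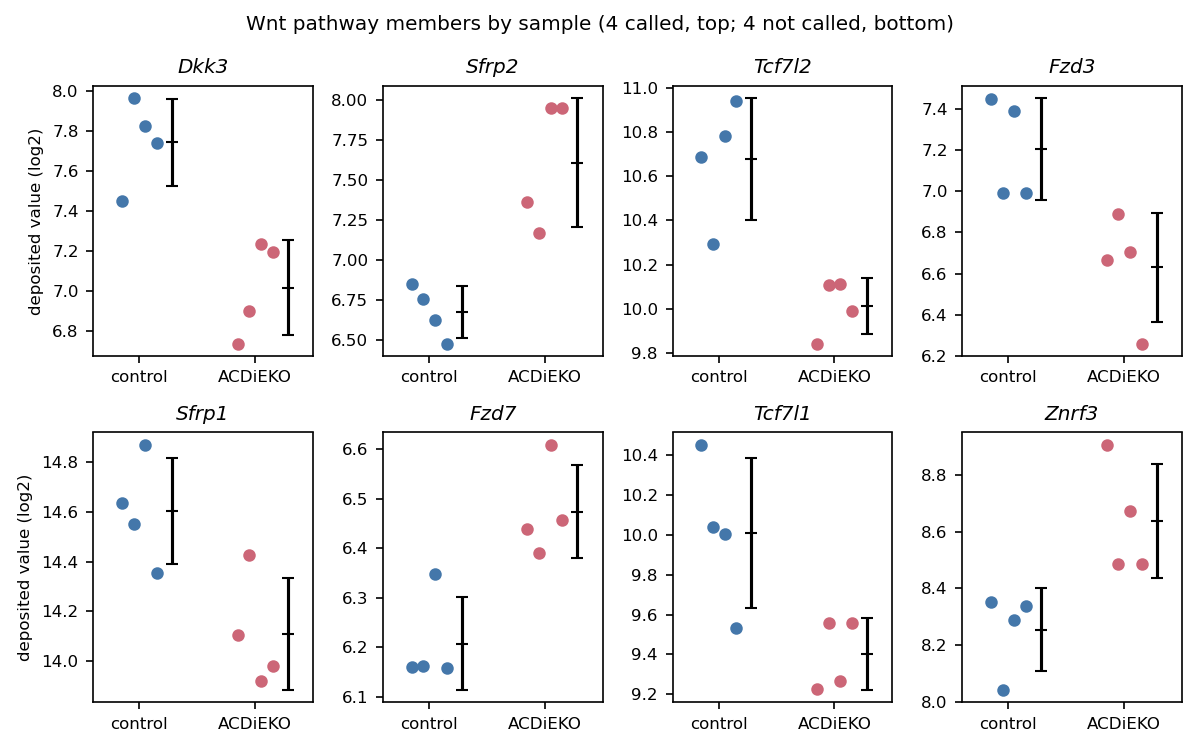
Deposited log2 values by sample, 4 samples a group, with mean and SD as a bar beside the points. The top row holds the 4 called genes (Dkk3, Sfrp2, Tcf7l2, Fzd3). The bottom row holds 4 genes that were not called and lay just outside the threshold (Sfrp1, Fzd7, Tcf7l1, Znrf3). Axes differ between panels and do not start at 0. The groups do not overlap in the top row or for Fzd7 and Znrf3.

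The coreceptors were not called. Lrp5, which pairs with Frizzled receptors, read 12.94, 12.64, 12.06 and 11.44 in controls and 12.20, 11.86, 12.22 and 12.18 in ACDiEKO. Controls varied more (SD 0.66) than ACDiEKO (SD 0.17), and the interval of the difference of -0.15 was wide (-0.84 to 0.54). The lowest were controls 3 and 4, whose animal numbers lie apart from all others. Without controls 3 and 4 the Lrp5 difference was -0.67 and just missed the threshold (limma, adjusted p = 0.0528). With a term for the animal-number run it was again -0.67 (0.0762). The cause of the spread among controls was not tested. Lrp6, a close relative of Lrp5, was steadier, with a difference of -0.06 (interval -0.23 to 0.12; adjusted p = 0.641).

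Of the Frizzled turnover genes, Znrf3, a ubiquitin ligase that removes Frizzled from the surface and is itself a target of beta-catenin, was higher in every ACDiEKO sample and just missed the threshold. It read 8.35, 8.04, 8.29 and 8.34 in controls and 8.91, 8.49, 8.67 and 8.49 in ACDiEKO, a difference of 0.38 (interval 0.11 to 0.65; adjusted p = 0.0633). Median centring (0.0444), quantile normalization (0.0231) and counting all 9 arrays separately (0.0296) each made it a call. Lgr4, an R-spondin receptor, differed by 0.21 (interval 0.03 to 0.39; adjusted p = 0.101), and its highest control equalled its lowest ACDiEKO sample. Lgr5 and Lgr6 stayed below the filter on all arrays.

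Of the R-spondins, only Rspo1 passed the filter. Rspo3, which endothelial cells are known to make, read 6.55, 6.93, 6.06 and 6.26 in controls and 5.59, 5.96, 5.76 and 5.60 in ACDiEKO, with no overlap. Only 3 control arrays passed the filter value, so it was 1 array short of being tested. In the fit without a filter it differed by -0.72 (SE 0.19; limma, adjusted p = 0.0752), with every ACDiEKO sample under the filter value. Rspo1 differed by 0.40 (interval -0.51 to 1.32; adjusted p = 0.519), and its spread was large in ACDiEKO (SD 0.86 against 0.31). Rspo2 and Rspo4 were below the filter on every array.

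Rspo1 and Sfrp2 were highest in the samples that also had the highest mesothelial markers, the genes of the thin layer covering the outside of organs and vessels. Rspo1 read 6.85, 7.50, 6.93 and 7.32 in controls and 6.79, 6.98, 7.75 and 8.68 in ACDiEKO. The mean of 8 mesothelial markers was 6.27 to 7.36 in controls, 6.59 and 6.86 in ACDiEKO 1 and 2 averaged and in ACDiEKO 3, and 8.67 and 8.78 in ACDiEKO 4 and 5. Upk3b, a defining mesothelial marker, stood at 11.16 and 11.49 in these 2 samples, against 6.98 to 9.84 in controls and 7.85 and 8.37 in the other ACDiEKO samples. Of the 8 markers 5 were tested and none was called. The part of these cells in the values of the Wnt genes was not tested.

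Sfrp2 encodes a secreted protein that shares the Wnt-binding domain of Frizzled receptors, and among the 24 it was the only gene called higher. It read 6.85, 6.75, 6.63 and 6.48 in controls and 7.36, 7.17, 7.95 and 7.95 in ACDiEKO. The groups were separate, and ACDiEKO 4 and 5 were the highest. It rose by 0.93 (SE 0.19; limma, adjusted p = 0.0155) from 6.68 ± 0.16 to 7.61 ± 0.40 (SD, n = 4 and 4). Without ACDiEKO 4 and 5 together the difference was 0.59 and the adjusted p 0.0573. Leaving out each sample alone kept the call 8 times of 8.

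Dkk3 is a divergent Dickkopf that, unlike Dkk1, is not an established LRP antagonist. Its values were 7.45, 7.96, 7.82 and 7.74 in controls and 6.73, 6.90, 7.23 and 7.19 in ACDiEKO. All ACDiEKO samples lay under all controls. It fell by 0.73 (SE 0.15; limma, adjusted p = 0.0142), from 7.74 ± 0.22 to 7.02 ± 0.24 (SD, n = 4 and 4), and stayed called without ACDiEKO 4 and 5 (0.0287) and without any single sample (0.0133 to 0.0413).

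Sfrp1, another SFRP antagonist, had a difference of the sign opposite to that of Sfrp2, and it did not pass the test. It read 14.64, 14.55, 14.87 and 14.36 in controls and 14.10, 14.43, 13.92 and 13.98 in ACDiEKO, where ACDiEKO 3 overlapped control 4. The difference was -0.50 (interval -0.82 to -0.17; adjusted p = 0.0509), and a stricter filter (0.0393), all 9 arrays counted separately (0.0230) or the loss of control 4 (0.0467) or of ACDiEKO 3 (0.0245) turned it into a call. Sfrp4 read 8.72, 8.18, 7.93 and 7.82 against 8.38, 8.07, 8.54 and 8.74, a difference of 0.27 (adjusted p = 0.420). Dkk2 differed by -0.20 (interval -0.62 to 0.22). Dkk1, Dkk4 and Sfrp5 stayed below the filter on all arrays.

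**Figure D3:**
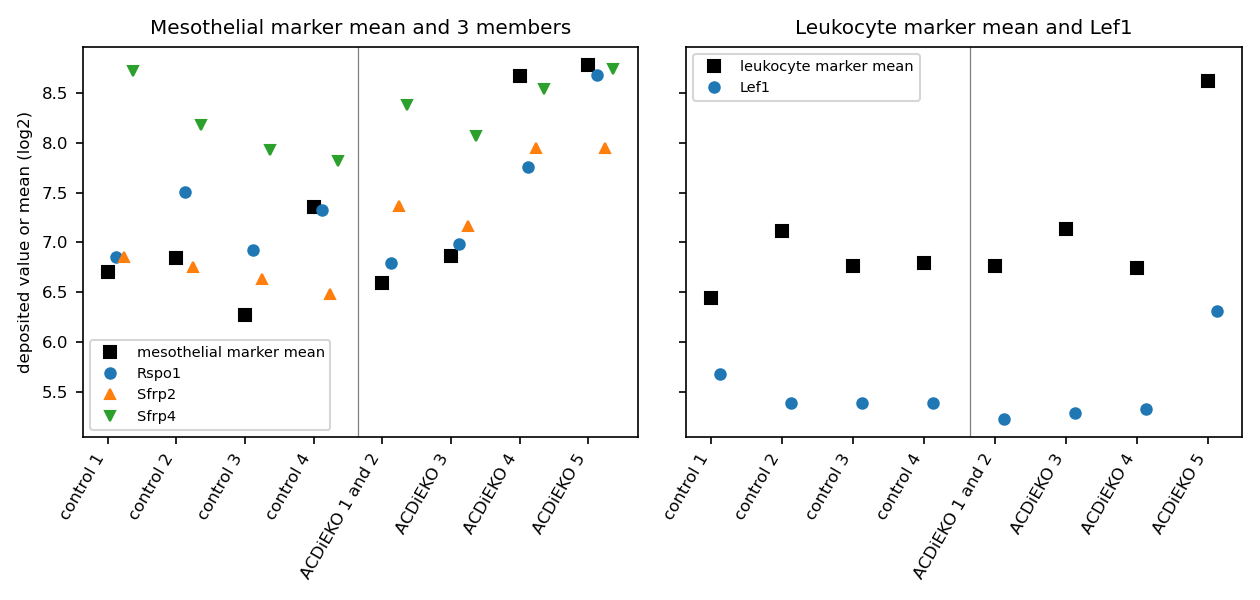
Left, log2 values of Rspo1, Sfrp2 and Sfrp4 beside the mean of 8 mesothelial markers (black squares) in the 8 samples. Right, Lef1 beside the mean of 11 leukocyte markers. Mesothelial means are highest in ACDiEKO 4 and 5 (8.67 and 8.78), and the leukocyte mean and Lef1 are highest in ACDiEKO 5 (8.62 and 6.31).

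Inside the cell, none of the tested Dishevelled and Axin genes was called. Dvl1 and Dvl3, the Dishevelled proteins that carry the signal from Frizzled, differed by -0.02 (interval -0.17 to 0.12) and 0.19 (interval -0.01 to 0.39; adjusted p = 0.167). Axin1, the scaffold of the destruction complex, differed by 0.01 (interval -0.15 to 0.18; adjusted p = 0.911). The spread of Axin1 must be read with care, because the same deposited value, 8.03, stood on 6 of the 9 arrays and its SD in ACDiEKO was 0.0068. Lrp6 carried 1 value on 5 arrays. Among all tested genes, 13.6% carried 1 value on 4 or more arrays, and among the 24 Wnt genes 2 did. For 2 or more arrays it was 47% of all tested genes and 11 of the 24 (45.8%). Fzd8 and Lgr4 each carried 1 value on 3 arrays, so the equal samples described above share a repeated deposited value.

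Axin2, the feedback inhibitor most often read as a marker of beta-catenin activity, was below the filter on all 9 arrays, reading 5.88 ± 0.14 in controls (SD, n = 4) and 5.92 ± 0.14 in ACDiEKO (SD, n = 4). In the fit without a filter it differed by 0.04 (95% interval -0.18 to 0.26; limma, adjusted p = 0.8285). Lef1, a TCF/LEF factor and a beta-catenin target, read 5.68, 5.38, 5.39 and 5.38 in controls and 5.22, 5.29, 5.33 and 6.31 in ACDiEKO. ACDiEKO 5 stood alone, and it also had the highest leukocyte marker mean (8.62, against 6.44 to 7.13 in the other 7 samples), with Cd3e of T cells at 7.51 against 5.54 to 5.88. The part of leukocytes in the Lef1 value was not tested.

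Of the TCF factors that bind beta-catenin on DNA, Tcf7l2 fell and Tcf7l1 had a like difference that missed the threshold. Tcf7l2 read 10.69, 10.29, 10.78 and 10.94 in controls and 9.84, 10.11, 10.11 and 9.99 in ACDiEKO. Control 2 was the lowest control and still above every ACDiEKO sample. The gene fell by 0.66 (SE 0.14; limma, adjusted p = 0.0164), from 10.68 ± 0.28 to 10.01 ± 0.13 (SD, n = 4 and 4), and kept the call without any single sample (0.00576 to 0.0483). Without ACDiEKO 4 and 5 together the adjusted p was 0.0984.

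Tcf7l1, which mostly represses its targets, read 10.45, 10.04, 10.01 and 9.53 in controls and 9.22, 9.56, 9.27 and 9.56 in ACDiEKO. Control 4 fell inside the ACDiEKO range, and the difference was -0.61 (interval -1.04 to -0.18; adjusted p = 0.0629). Leaving out control 4 (0.0215), counting all 9 arrays separately (0.0274) and a stricter filter (0.0471) each made it a call.

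**Figure D4:**
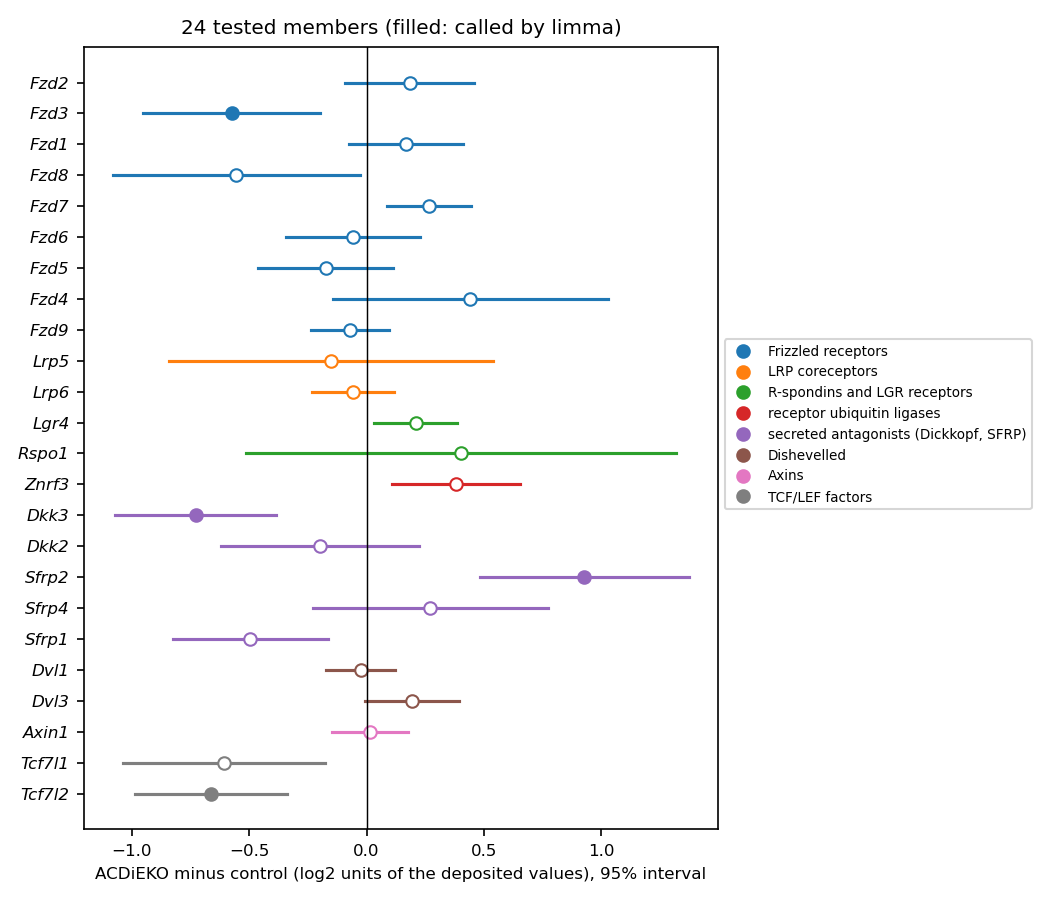
Difference between ACDiEKO and control (log2 units) with its 95% interval for the 24 tested Wnt pathway genes, coloured by role, with filled points for the 4 called genes. Sfrp2 lies farthest to the right (0.93) and Dkk3 farthest to the left (-0.73).

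Animal numbers in the titles form 2 runs, 1 with all ACDiEKO mice and controls 1 and 2 and the other with controls 3 and 4. Within the first run none of the 4 calls held with the 2 controls left, though each kept its direction. In that fit, with fewer samples, limma called 6.87% of all genes tested, against 16.3% with all samples. Dkk3 differed by -0.69 (adjusted p = 0.108), Sfrp2 by 0.80 (0.125), Tcf7l2 by -0.48 (0.106) and Fzd3 by -0.59 (0.153). Tcf7l1 was called there, with -0.85 (0.0422). The smooth muscle marker mean moved with genotype beside all of these. It separated the groups, so a fit with it cannot tell its part from that of genotype, and there limma called 0 genes. With that mean as a covariate the differences were -0.53 for Dkk3, 0.50 for Sfrp2, -0.45 for Tcf7l2 and -0.70 for Fzd3, with adjusted p from 0.708 to 0.834. Among the genes just outside the threshold, that covariate took Znrf3 from 0.38 to 0.09 and Sfrp1 from -0.50 to -0.19, and left Fzd7 at 0.24 and Tcf7l1 at -0.71.

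Promoter windows of the called genes are shown because the deleted factors act on DNA. RefSeq windows (GRCm38.p6, 250 bases before to 50 after a transcript start) were used for 2 of the 4 called genes, Sfrp2 and Tcf7l2, and for 35 of the 54. Windows on the chromosome that holds Fzd8 and Wnt8a were left out beforehand, from the members and from all windows. Both strands were searched for the MEF2 consensus, for CTTTGA, the core bound by TCF/LEF factors, and for CCACCC, a core bound by Krüppel-like factors. The last was added because Klf2 (from 10.90 to 7.35; limma, adjusted p = 0.00105) and Klf4 (from 12.67 to 8.58; 0.00153) fell in the same samples. The MEF2 consensus was in none of the 42 windows of these 35 genes and in 3.19% of all 32851 windows. CTTTGA was in 5 of the 42, those of Dkk1, Fzd1, Lef1, Wnt11 and Wnt5b, against 16% of all. CCACCC was in 23 of the 42 windows, from 19 genes, and in 31.5% of all windows. Of the 19 genes only Sfrp2 and Tcf7l2 were called, and several were ligands below the filter. Windows of the same gene were counted separately, and the base composition of the windows was not taken into account. A match describes letters, not a bound site, and says nothing about enhancers outside the window.

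The Sfrp2 window at chr3:83766071-83766370 (plus strand) and the 2 Tcf7l2 windows at chr19:55741560-55741859 and chr19:55895071-55895370 (plus strand) follow, with capitals on the CCACCC core or its complement. Each holds 1 match and neither of the other motifs.
Sfrp2: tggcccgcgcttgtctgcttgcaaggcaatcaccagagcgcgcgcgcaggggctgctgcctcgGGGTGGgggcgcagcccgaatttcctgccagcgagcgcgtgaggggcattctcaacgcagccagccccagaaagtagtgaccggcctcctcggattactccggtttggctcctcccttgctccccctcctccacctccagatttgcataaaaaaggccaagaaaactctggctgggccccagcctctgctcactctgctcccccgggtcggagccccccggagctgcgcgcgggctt
Tcf7l2 upstream start: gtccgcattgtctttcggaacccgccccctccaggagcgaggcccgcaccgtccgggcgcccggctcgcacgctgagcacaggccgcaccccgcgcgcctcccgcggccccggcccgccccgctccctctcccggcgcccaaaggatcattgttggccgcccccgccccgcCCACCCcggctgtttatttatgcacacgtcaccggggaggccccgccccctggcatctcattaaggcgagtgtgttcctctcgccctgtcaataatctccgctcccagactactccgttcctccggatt
Tcf7l2 downstream start: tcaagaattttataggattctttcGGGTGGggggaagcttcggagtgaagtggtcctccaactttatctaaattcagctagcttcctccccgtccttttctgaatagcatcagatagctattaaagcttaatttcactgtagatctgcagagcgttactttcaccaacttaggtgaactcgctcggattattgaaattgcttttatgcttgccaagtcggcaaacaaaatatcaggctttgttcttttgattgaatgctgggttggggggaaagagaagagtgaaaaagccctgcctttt

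Beyond these families, 88 other genes of the pathway were listed, 83 were measured and 62 tested. Limma called 14 of the 62 (22.6%), 6 higher and 8 lower, beside the 16.3% of all genes (8.92% higher and 7.33% lower). The sublists below are small and were chosen with earlier results known, so their counts describe single genes and not a step of the pathway. The calls included 2 genes of Wnt release and 3 nuclear cofactors that fell, and 4 genes described elsewhere as beta-catenin targets that rose. The direction counts depend on scaling here as well, with 11 higher and 5 lower after median centring.

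Among genes of Wnt secretion and release, 2 of 4 tested fell and none rose. Porcn, the acyltransferase that attaches the lipid Wnt proteins need for secretion, read 8.27, 7.97, 8.50 and 8.44 in controls and 7.76, 7.39, 7.51 and 7.55 in ACDiEKO. It fell by 0.74 (adjusted p = 0.00856), with no overlap. The call was lost without controls 3 and 4 (difference -0.57, adjusted p = 0.0697) and without ACDiEKO 4 and 5 (-0.72, 0.0847). Sulf2, a sulfatase that edits heparan sulfate and thereby Wnt binding, fell by 1.73, from 14.38 ± 0.25 to 12.65 ± 0.50 (adjusted p = 0.00354). Wls, the carrier of Wnt proteins to the surface, differed by -0.24 (adjusted p = 0.241) and Sulf1 by -0.42 (0.116).

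Of 11 other extracellular and membrane genes tested, 2 rose. Ror1, a receptor of Wnt5a, rose by 1.26 (adjusted p = 0.0108), from 10.03 ± 0.16 to 11.29 ± 0.52. Its difference was 1.22 without controls 3 and 4 (adjusted p = 0.0908), and 0.41 with the smooth muscle marker mean as a covariate. Sost, the LRP antagonist sclerostin, rose by 0.97 (0.0258), and lost the call without control 3 (0.0677), control 4 (0.0717), both near-identical arrays (0.0569), controls 3 and 4 together (0.178) or ACDiEKO 4 and 5 together (0.0666). Adgra2, the coreceptor GPR124 of brain endothelium, differed by 0.44 (0.0537), and Cthrc1 by -0.50 (0.150). Norrin itself (Ndp) was below the filter.

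In the destruction complex and cytoplasm, 1 of 16 tested genes was called. Gsk3b, the kinase that marks beta-catenin for destruction, fell by 0.26 (adjusted p = 0.0384), and the call was lost after median centring (0.128) and quantile normalization (0.117) and in 7 of 8 fits without 1 sample. Fbxw11 (0.40, adjusted p = 0.0602) and Csnk1d (0.30, 0.0688) were not called. Nkd1, a feedback inhibitor and beta-catenin target, differed by -0.17 (0.541).

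Of 12 nuclear cofactors tested, 3 fell and none rose. Bcl9l, which links beta-catenin to its coactivators, fell by 0.91 (adjusted p = 0.00946), from 10.15 ± 0.19 to 9.24 ± 0.32. Without controls 3 and 4 its difference was again -0.91, with an adjusted p of 0.0728. The Groucho-type corepressors Tle2 and Tle4 fell by 0.52 (0.0319) and 0.59 (0.0485), each called in few fits without 1 sample (2 of 8 and 1 of 8) and neither after median centring (0.0534 and 0.0771). Tle1, of the same family, differed by 0.46 (0.0556), and Ctnnbip1 by 0.28 (0.0756). This list also held Tcf3, which in current nomenclature is the E2A factor and not a TCF/LEF gene, with a difference of 0.17 that was not called.

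Of 10 planar polarity genes tested, Prickle1, a cytoplasmic component of that pathway, fell by 0.54 (adjusted p = 0.00414), from 7.02 ± 0.12 to 6.49 ± 0.08. Prickle2 differed by -0.68 (0.0855) and Celsr2 by -0.31 (0.132). Prickle1 kept its call in all 8 fits without 1 sample.

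Of 9 tested genes described elsewhere as beta-catenin targets, 4 rose and 1 fell. Myc, a growth regulator with many other inputs, rose by 2.998, from 7.94 ± 0.69 to 10.94 ± 0.48 (adjusted p = 0.00205). Plaur, the urokinase receptor, rose by 2.14 (0.000436), the hyaluronan receptor Cd44 by 1.12 (0.0209) and the glucose transporter Slc2a1 by 0.89 (0.0230). Bambi, a pseudoreceptor of BMP and TGF-beta signaling, fell by 1.996 (0.00181). The feedback targets Axin2, Lef1, Sp5 and Notum all failed the filter, and Sox17 differed by -0.10 (0.735). Nrarp (0.22, adjusted p = 0.511) and Fgf18 (-0.07, 0.560) were not called either. Cd44 and Slc2a1 were called in 5 and 3 of 8 fits without 1 sample. Without controls 3 and 4 they differed by 1.08 and 0.82 and were not called (0.135 and 0.130).

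The smooth muscle markers moved with genotype beside these calls too. With their mean as a covariate none of the 14 was called, as was true of every gene tested. That mean separated the groups, so this fit cannot tell its part from that of genotype, and the values below only describe it. Differences shrank from 1.12 to 0.10 for Cd44, from 0.89 to 0.37 for Slc2a1, from 2.998 to 1.42 for Myc and from -0.52 to -0.03 for Tle2. Sulf2 went from -1.73 to -0.76, Bambi from -1.996 to -1.17 and Bcl9l from -0.91 to -0.59, while Plaur (1.73), Sost (0.87), Porcn (-0.74), Prickle1 (-0.52), Tle4 (-0.53) and Gsk3b (-0.19) moved by less than 1.5 times. Without controls 3 and 4 limma called 6.87% of all genes tested. Among them were 5 of the 14, namely Sulf2, Prickle1, Myc, Plaur and Bambi. Without ACDiEKO 4 and 5 (6.6% of all genes called) these 5 were called together with Ror1 and Bcl9l.

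**Figure D5:**
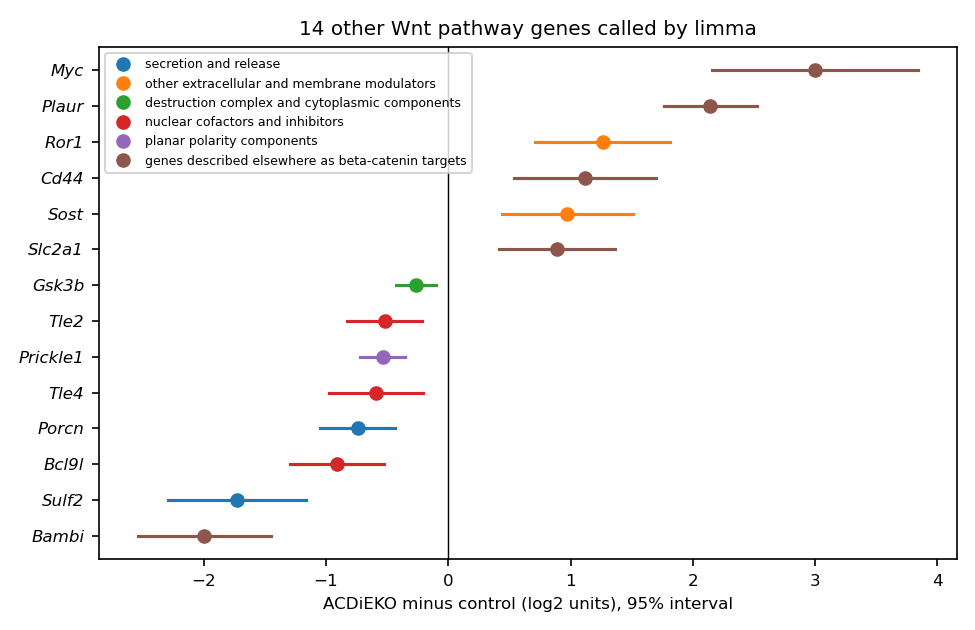
Difference between ACDiEKO and control (log2 units) with its 95% interval for the 14 other Wnt pathway genes called by limma, coloured by list. Myc (2.998) and Bambi (-1.996) mark the ends, and 8 of the 14 lie below 0.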

How the data were processed

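Deposited log2 values of 9 arrays were used, which the authors made with RMA per the submitters' processing notes; RMA corrects background, normalizes arrays and gives 1 value per transcript cluster. Values ran from 2.58 to 19.34, past what a 16-bit scanner spans, so a further step is unstated. Per the labels' protocols 5 ng RNA was amplified. The genome build is not given in the sources used here. After 6732 array controls were left out, 65956 clusters remained, 30604 with 1 symbol, 2146 with several and 33206 with none listed here; 827 symbols were updated through gene IDs.

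The test was that of limma (version 3.58.1, R 4.3.3; functions lmFit and eBayes, two-sided, Benjamini-Hochberg over all genes tested, 0.05) on 4 control and 4 ACDiEKO samples. Numbers after "rep" were not used to pair arrays in this test. Deviations of arrays with the same number correlated by -0.0049, -0.15, 0.04 and 0.04. These values rest on ACDiEKO 1, 2 and 3 alone, with 1 and 2 near-identical, and cannot exclude pairing. Titles of 2 controls carry number 3, and the second is called control 4. On simulated independent values the fit recovered 78.2% of shifts of 1 log2 unit and 94.6% of shifts of 2. Of its calls there, 5.37% were false. Differences of the 24 tested Wnt genes were all smaller (at most 0.93), and shifts of that size were not simulated. Members and lists were chosen with earlier results of these data known, so they are no independent support. Values were given for every called Wnt gene, for uncalled ones among the 10 brightest or the 10 smallest p, for those below the filter by name and range, and for the other lists for the called genes and the 2 smallest p not called per sublist. Values of Sox17, Nkd1, Ndp, Tcf3 and further Wnt genes outside this rule were chosen after they were seen. Alternatives were other thresholds, filters, scalings, cluster choices, variance models, array weights, blocks, covariates and left-out samples. The number of arrays limits the precision. Promoter windows came from RefSeq.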

Additional observations from a re-analysis of the deposited data

Results flagged for a closer look

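In 9 of 82 groups of 4 samples looked at, 1 sample lay far from the other 3 by Dixon's criterion, which chance gives to about 1 group in 20. ACDiEKO 5 read 6.31 for Lef1 (nearest 5.33), 7.51 for Fzd8 (nearest 8.21) and 8.05 for Axin1 (nearest 8.03, where the other 3 samples shared 1 value). ACDiEKO 4 read 7.38 for Fzd2 (nearest 6.94) and 9.26 for Dvl1 (nearest 9.34). ACDiEKO 1 and 2 averaged read 14.42 for Fzd4 (nearest 13.94), and ACDiEKO 3 read 11.86 for Lrp5 (nearest 12.18). Among controls, control 1 read 5.68 for Lef1 (nearest 5.39) and control 3 read 6.35 for Fzd7 (nearest 6.16).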

How the results depend on the processing

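Counts are given as all genes called, Wnt genes called higher and lower, and other pathway genes called higher and lower, which were 2666, 1 and 3, and 6 and 8. At an adjusted p threshold of 0.01 they were 1035, 0 and 0, and 2 and 5; at 0.1 they were 4045, 3 and 5, and 11 and 9. Median centring gave 2811 (1851 higher, 960 lower, against 1463 and 1203), 3 and 2, and 11 and 5, and quantile normalization 3008, 3 and 2, and 11 and 6. With no filter the other pathway genes called higher numbered 3; with a stricter filter (upper quartile, 8.417) the counts were 2080, 0 and 3, and 6 and 5, since Sfrp2, Dkk3 and Fzd3 were then too dim to be tested and the 3 lower were Tcf7l2, Sfrp1 and Tcf7l1. An intensity trend with robust variance gave 2612, 2 and 3, and 6 and 6. With the replicate block on each of the 9 arrays the counts were 2351, 1 and 2, and 8 and 5; with each of the 9 arrays as a sample and no block they were 3710, 3 and 5, and 11 and 8. A term for the animal-number run gave 1692, 0 and 1, and 2 and 5. Dropping controls 3 and 4 gave 1127, 0 and 1, and 2 and 3. Without both near-identical arrays they were 1822, 1 and 2, and 4 and 5. With the smooth muscle marker mean as a covariate limma called 0 in each (1345 genes at an unadjusted p under 0.05). Without ACDiEKO 4 and 5 together, chosen after seeing the data, they were 1083, 0 and 1, and 3 and 4. Leaving out 1 of the other samples at a time gave 1680 (without ACDiEKO 4) to 2465 genes, 1 to 2 and 2 to 4 Wnt genes, and 3 (without control 4) to 8 and 5 (without control 3, ACDiEKO 4 or ACDiEKO 5) to 6 other pathway genes. Apart from changes that follow from testing fewer genes or samples, the cause of these shifts was not tested.

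The mean of a gene's clusters and array weights kept every one of these counts within 1.5 times. Each of the 54 Wnt genes had 1 cluster, so for their values the mean of clusters could change nothing and is no check. None of the 4 called Wnt genes and 14 called pathway genes changed direction under the settings that tested it. No background was measured for the dim genes, among them the ligands, Axin2, Lef1 and Rspo3.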
